A study of Mus musculus with 16 samples.

Results

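The interferon-inducible GTPases described here are 9 genes of 2 related families, the guanylate-binding proteins Gbp2, Gbp3, Gbp4 and Gbp6 and the immunity-related GTPases Tgtp1, Ifi47, Iigp1, Igtp and Irgm1. They were chosen by family name with their values on these arrays already known, so their levels are given as a description and the fitted p-values beside them are the output of a fit over all genes. Of 41174 probes on the array, 10 carried the name of 8 of the 9 listed genes. Gbp6 was found only through an older symbol, Mpa2l, with an accession of Gbp6, which gave 11 probes for 9 genes. All 9 genes passed the filter on dim probes together with the rest of the 15399 genes tested.

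The series asked what 5-aminolevulinic acid (ALA), a heme precursor that cells convert to the photosensitiser protoporphyrin IX, adds to radiotherapy of a mouse tumour. B16-BL6 is a melanoma line of C57BL/6 origin, grown here in male C57BL/6J mice aged 8 weeks. The 16 tumours fell into 4 groups of 4: control tumours given neither agent, tumours given ALA at 50 mg/kg, tumours given fractionated X-ray irradiation (Xray), and tumours given the same ALA dose locally before each fraction (ALA+Xray). Each tumour preparation was read on its own 1-colour Agilent array. No source used here gives the radiation dose, the number of fractions or the day of collection. The melanocyte genes that define the tumour were present in every group: all 9 listed, Tyr (tyrosinase) among them, were well above background on all 16 arrays.

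Guanylate-binding proteins and immunity-related GTPases are made by most cell types after exposure to interferons, above all interferon gamma. Both families bind to the membranes of vacuoles that hold microbes and help to break them open, and the guanylate-binding proteins also feed the inflammasome. Within the immunity-related GTPases, Tgtp1, Ifi47 and Iigp1 are effectors that load onto vacuoles, while Igtp and Irgm1 sit on the cell's own membranes and hold the effectors inactive there. Interferon gamma acts at gamma-activated sites (GAS) in promoters, and both interferon types act through IRF-containing complexes at interferon-stimulated response elements (ISRE).

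The array annotation (mouse build mm9) placed the probes in 2 clusters of guanylate-binding protein genes and in clusters of immunity-related GTPase genes. The Gbp2 probe lay at chr3:142300719-142300778 and the Gbp3 probe at chr3:142236072-142236131, both on the plus strand. Those of Gbp4 (chr5:105547080-105547139) and Gbp6 (chr5:105700081-105700140) were on the minus strand. The Irgm1 probe at chr11:48679069-48679128 (minus), the Tgtp1 probe at chr11:48800173-48800232 (minus) and the Ifi47 probe at chr11:48910173-48910232 (plus) lay near each other, and the Igtp probe lay at chr11:58020927-58020986 (plus). No exon or UTR annotation of this build was used here. The Tgtp1 probes list transcripts of both Tgtp1 and its near-identical neighbour Tgtp2, so their signal cannot be split between these 2 genes.

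Promoter sequence from RefSeq (GRCm38.p6) was used for 6 of the 9 members. It is shown because the members' levels moved together across the arrays and the family is known for interferon-driven transcription. The 100 bases before each start are written on the gene's strand, with capitals for the ISRE core (GAAANNGAAA, searched on both strands) and the GAS core (TTCNNNGAA, its own reverse complement); matches that overlap are run together.
Gbp2, chr3:142620563-142620662, plus strand: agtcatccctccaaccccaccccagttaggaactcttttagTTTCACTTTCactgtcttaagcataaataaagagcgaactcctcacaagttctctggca
Gbp3, chr3:142559944-142560043, plus strand: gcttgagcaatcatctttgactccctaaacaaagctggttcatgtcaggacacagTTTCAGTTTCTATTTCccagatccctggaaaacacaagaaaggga
Irgm1, chr11:48871421-48871520, minus strand: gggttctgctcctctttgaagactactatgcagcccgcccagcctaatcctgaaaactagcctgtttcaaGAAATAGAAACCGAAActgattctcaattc
Igtp, chr11:58199456-58199555, plus strand: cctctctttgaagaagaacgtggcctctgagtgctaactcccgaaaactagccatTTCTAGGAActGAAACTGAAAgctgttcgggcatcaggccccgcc
Tgtp1, chr11:48992247-48992346, minus strand: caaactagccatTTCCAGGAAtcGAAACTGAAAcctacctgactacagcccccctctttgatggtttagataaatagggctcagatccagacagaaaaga
Ifi47, chr11:49076487-49076586, plus strand: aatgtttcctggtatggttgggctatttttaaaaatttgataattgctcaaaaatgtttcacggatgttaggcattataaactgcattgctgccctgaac

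Of the 6 genes, 5 held an ISRE core in the 300-base window around a start: Gbp2, Gbp3, Irgm1, Igtp and Tgtp1. Over all 32851 windows of the same length in that table, 3.44% held one. Gbp3 has a second start listed, whose window held neither motif. Both Irgm1 and Gbp3 had 2 overlapping ISRE cores. Igtp and Tgtp1 also held a GAS core, which 8.3% of all windows did, and in both promoters it stood 2 bases before the ISRE core. The same arrangement, with 2 bases between the cores, was found in Irgm2 and Tgtp2, and 0.454% of all windows held both motifs at any distance. Igtp and Tgtp1 shared a run of 14 identical bases that ran into the GAS core. The Ifi47 window held neither set of letters, which says only that they are not in this window.

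All 9 GTPases were high on the 4 ALA+Xray arrays and on 1 of the 4 Xray arrays, replicate 1, and lower on the other 11. Xray replicate 1 was the highest of the 16 arrays for 9 of 9 members. It was 5.30-fold (Irgm1) to 108-fold (Tgtp1) above the next Xray array for the 7 members that were well above background on that array. The ALA+Xray arrays lay above every control, ALA and other Xray array for 9 of 9 members. Levels are given as the processed signal divided by the array's 75th percentile, so that 1 stands for that percentile. Each probe is compared only with itself.

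**Figure D1:**
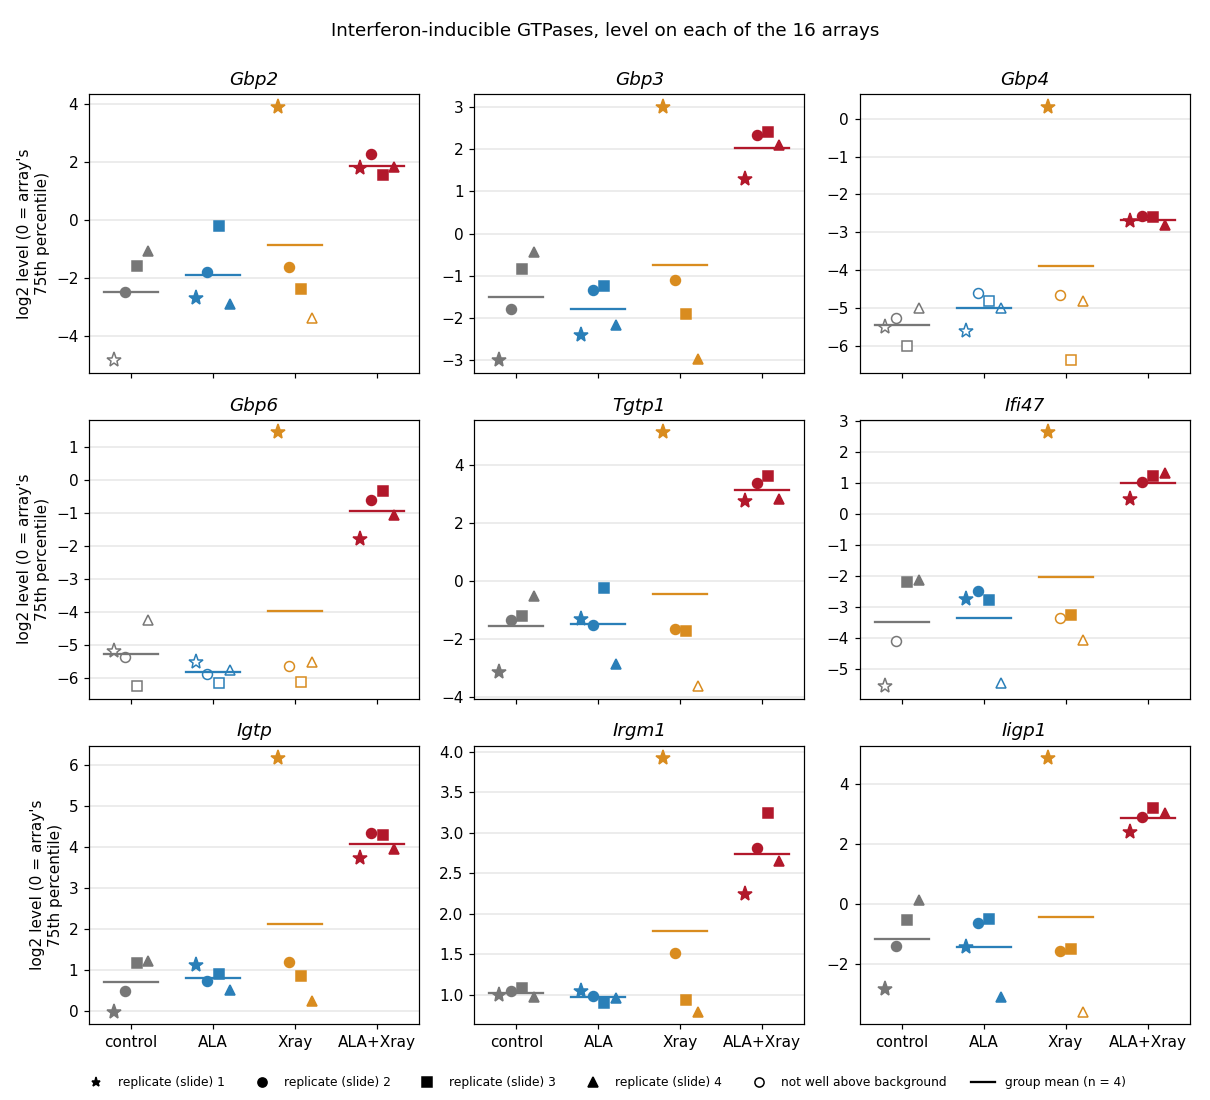
Log2 level of each GTPase (vertical axis, 0 is the array's 75th percentile) on the 16 arrays, by group on the horizontal axis; symbols mark the replicate, which is also the slide, open symbols are not well above background and lines are means of 4 arrays. In all 9 panels the 4 ALA+Xray arrays sit above control and ALA, and Xray replicate 1 sits above every other array.

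Gbp2, a guanylate-binding protein that coats vacuoles and released bacteria, had levels of 0.0357, 0.180, 0.338 and 0.476 on the control arrays. The first of these was not well above background. Levels were 0.156, 0.292, 0.860 and 0.135 in ALA tumours. In Xray tumours they were 14.9, 0.330, 0.194 and 0.0973, and in ALA+Xray tumours 3.48, 4.79, 2.92 and 3.55. The control, ALA and Xray groups overlapped apart from Xray replicate 1, and the ALA+Xray group stood clear of control and ALA. On the log2 scale Gbp2 was 4.34 ± 1.25 (SE, 4 arrays each) higher in ALA+Xray than in control, a 20.2-fold difference (adjusted p = 0.0239, limma with Benjamini-Hochberg adjustment over all genes, as are all adjusted p-values here).

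Gbp3, its neighbour on the same chromosome, was well above background on all 16 arrays. Its levels were 0.126, 0.292, 0.565 and 0.739 in control, and 8.05, 0.469, 0.269 and 0.128 in Xray tumours. ALA+Xray tumours had 2.44, 5.04, 5.31 and 4.28. The difference between ALA+Xray and control was 3.54 ± 0.96 on the log2 scale (11.6-fold, adjusted p = 0.0186). In ALA tumours Gbp3 spanned 0.190 to 0.425, inside the control range.

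Gbp4 and Gbp6, from the second cluster, were well above background on only 5 arrays, Xray replicate 1 and the 4 of ALA+Xray. They therefore passed the filter only through the arrays on which they were high, and a difference between groups was bound to appear. Gbp4 had 1.25 on Xray replicate 1 and 0.154, 0.167, 0.164 and 0.143 in ALA+Xray tumours. Gbp6 had 2.75 on Xray replicate 1 and 0.291, 0.659, 0.796 and 0.482 in ALA+Xray tumours. Against control, where no array was above background, Gbp4 was at least 2.13-fold and Gbp6 at least 7.09-fold higher in ALA+Xray; these bounds set each dim array at the lowest signal well above background on it. The fitted differences were 2.78 ± 0.96 for Gbp4 (adjusted p = 0.0485) and 4.33 ± 1.22 for Gbp6 (adjusted p = 0.0221), with measured log2 means of -5.45 and -5.27 in control. With a normexp background correction the same differences were 0.55 (adjusted p = 0.302) and 1.19 (adjusted p = 0.152), so neither call was kept.

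Tgtp1, a T-cell-specific GTPase by its original name and an effector that loads onto vacuoles, had levels of 0.113, 0.397, 0.437 and 0.701 in control tumours. ALA tumours had 0.408, 0.354, 0.840 and 0.138, which overlapped control. Xray tumours had 34.8, 0.321, 0.306 and 0.0819, the last not well above background. In ALA+Xray tumours the levels were 6.77, 10.3, 12.4 and 7.13, all above both untreated and ALA tumours. The fitted difference between ALA+Xray and control was 4.70 ± 1.34 on the log2 scale (25.9-fold, adjusted p = 0.0233), the largest of the 7 members measured above background in both groups.

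Ifi47, a second effector of the same class, was well above background on 2 control, 3 ALA, 2 Xray and 4 ALA+Xray arrays. It read 0.0216, 0.0589, 0.219 and 0.229 in control, and 6.16, 0.0971, 0.104 and 0.0596 in Xray tumours. The ALA+Xray levels were 1.40, 2.02, 2.32 and 2.51, again clear of control. The difference was 4.49 ± 1.23 (22.5-fold, adjusted p = 0.0196). Control replicates 1 and 2, at 0.0216 and 0.0589, were not well above background, so this size rests in part on readings near background.

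Iigp1, the effector best known for disrupting the vacuole of Toxoplasma, lies on chromosome 18. Control tumours had 0.141, 0.380, 0.698 and 1.09, and Xray tumours had 28.8, 0.338, 0.359 and 0.0839. ALA+Xray tumours had 5.30, 7.42, 9.14 and 8.14. The 3 other Xray arrays lay within or below the control range. ALA+Xray exceeded control by 4.03 ± 1.32 (16.4-fold, adjusted p = 0.0385).

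Igtp (also called Irgm3), a regulator that keeps effectors off the cell's own membranes, was well above background on all 16 arrays. Levels in control were 0.979, 1.39, 2.25 and 2.32, and in ALA tumours 2.17, 1.65, 1.84 and 1.41. Xray tumours had 71.6, 2.26, 1.80 and 1.17, and ALA+Xray tumours had 13.2, 20.1, 19.4 and 15.4. The control, ALA and remaining Xray values covered the same range, whereas the lowest ALA+Xray array was 2.50 above the highest control or ALA array on the log2 scale. ALA+Xray was 3.36 ± 0.92 higher than control (10.3-fold, adjusted p = 0.0193).

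Irgm1, the regulator also tied to autophagy, had the smallest difference from control of the 7 members measured above background in both groups; Gbp4 and Gbp6 have only bounds. Its control levels were 1.99, 2.07, 2.12 and 1.96, with an SD of 0.05 on the log2 scale, and ALA tumours had 2.06, 1.97, 1.86 and 1.94. In Xray tumours the levels were 15.1, 2.86, 1.91 and 1.73, and in ALA+Xray tumours 4.75, 7.05, 9.49 and 6.27. Xray replicate 2 lay above every control and ALA array, the only such value outside replicate 1 in the Xray group among the 9 genes. The difference between ALA+Xray and control was 1.72 ± 0.50 (3.29-fold, adjusted p = 0.0240).

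A second probe was present for Irgm1 and Tgtp1. The second Irgm1 probe followed the first (Pearson r = 0.981 over 16 arrays of the same libraries) and gave a difference of 1.84 ± 0.54 between ALA+Xray and control (adjusted p = 0.0260 in a fit of all 21632 probes that passed). The second Tgtp1 probe was well above background on 5 arrays only, those that also showed Gbp4 and Gbp6. It gave 2.01 ± 0.76 (adjusted p = 0.0675), or at least 2.27-fold over control, against 4.70 for the brighter probe. The 2 Tgtp1 probes thus had the same direction but did not both pass.

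Read as a set, the members gave 9 of 9 called higher in ALA+Xray against control, where 9.77% of all genes were called higher, and their median difference was 4.03 (3.54 with Gbp4 and Gbp6 at their bounds) against -0.08 over all genes. Against ALA alone 8 of 9 were called, with 10.7% of all genes called higher; the exception was Gbp4 (2.34, adjusted p = 0.0875). The array values of the groups did not overlap for 9 of 9 members in both comparisons, which held for 8.99% of genes against control and 9.29% against ALA. Gbp4 and Gbp6 were above background on no control or ALA array and could not have passed the filter without differing; of the 7 others, 7 were called and 7 did not overlap in each of these comparisons. These counts describe genes that were chosen with their values known. They also rest on single arrays: against control the count was 0 without control replicate 2, 1 without control replicate 1, 2 without ALA+Xray replicate 3 and 3 without ALA+Xray replicate 2. Against ALA it was 2 without ALA+Xray replicate 3, 3 without ALA replicate 4, 4 without ALA+Xray replicate 2, and 5 without ALA replicate 1 or ALA+Xray replicate 4. The number of all genes called in either direction fell too, against control from 3828 to 1954, 2239, 2191 and 2194 in that order. Against ALA the number fell from 3713 to 2219, 2165, 2360, 2431 and 2503 in that order. The differences themselves moved less. Against control the median of the 9 members ran from 3.475 (without control replicate 1) to 4.458 (without control replicate 4) over all 16 fits with 1 array left out. For Igtp alone the range was 3.11 to 3.53. With the slide, which carries the replicate number, as a block, 7 of 9 were called in each comparison. That fit called 4147 of all genes against control and 4102 against ALA, in either direction. Gbp4 (adjusted p = 0.0552) and Iigp1 (0.0526) were lost against control and Gbp2 (0.0640) against ALA.

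No member was called in ALA tumours against control. Gbp4 and Gbp6 were not well above background on any array of either group, so no difference is read from them. For the 7 others the differences from control ran from -0.28 (Gbp3) to 0.59 (Gbp2), 4 of 7 above 0, with adjusted p from 0.940 to 0.992. By limma 0 of 9 members were called, and 0% of all genes were called higher; 0 members and 961 of all genes had an unadjusted p under 0.05. At these sizes of SE (0.50 for Irgm1 to 1.34 for Tgtp1) smaller differences could not be seen.

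Xray alone against control gave 0 of 9 called, where 1.99% of all genes were called higher, and 0 of 9 without overlap, which 7.83% of genes had. By limma 0 of 9 had an unadjusted p under 0.05. For the 7 members other than Gbp4 and Gbp6 the differences were 0.71 (Iigp1) to 1.62 (Gbp2), with adjusted p from 0.392 to 0.791. Without replicate 1, 3 of these 7 were above 0 and the range was -1.05 (Iigp1) to 0.06 (Irgm1); again 0 of 9 were called, with 0.00649% of all genes called higher. For 8 of the 9 members the other 3 Xray arrays stayed at or below the highest control or ALA array.

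ALA+Xray against Xray, the comparison that asks what ALA adds, gave 0 of 9 called by limma with 7 of 9 at an unadjusted p under 0.05; 1.3% of all genes were called higher. For the 7 members other than Gbp4 and Gbp6 the differences were 0.95 (Irgm1) to 3.61 (Tgtp1), with adjusted p from 0.116 to 0.262, and the groups overlapped for all 9, while 2.72% of genes were higher without overlap. Without Xray replicate 1 all 9 were called, with 4.85% of all genes called higher, and the differences of the 7 were 1.66 ± 0.21 (Irgm1, adjusted p = 0.00123) to 5.47 ± 0.67 (Tgtp1, adjusted p = 0.00113). For Gbp4 and Gbp6, which none of the 3 remaining Xray arrays showed above background, the bounds were at least 2.09-fold and at least 6.94-fold. Against control the same fit again called 9 of 9, where 10.7% of all genes were called higher, with smaller SEs. Leaving out an array because its value stands apart is a choice made on the outcome, so these values stand beside those of the 16 arrays and do not replace them.

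The interaction of ALA and irradiation, that is whether ALA+Xray exceeded the sum of the single effects, was above 0 for the 7 members other than Gbp4 and Gbp6, from 1.01 (Irgm1) to 3.58 (Iigp1). For those 2 it rests on readings near background in 3 of the 4 groups, apart from Xray replicate 1, and no size is read from it. By limma 0 of 9 members passed (adjusted p of the 7 from 0.242 to 0.528, 1 of 7 at an unadjusted p under 0.05), where 0.896% of all genes were called higher. Without Xray replicate 1, 8 of 9 passed, 6 of them among the 7, with 3.45% of all genes called higher; Gbp2 (3.71 ± 1.09) had an adjusted p of 0.0681. The call for the interaction thus differed with and without this 1 array.

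**Figure D2:**
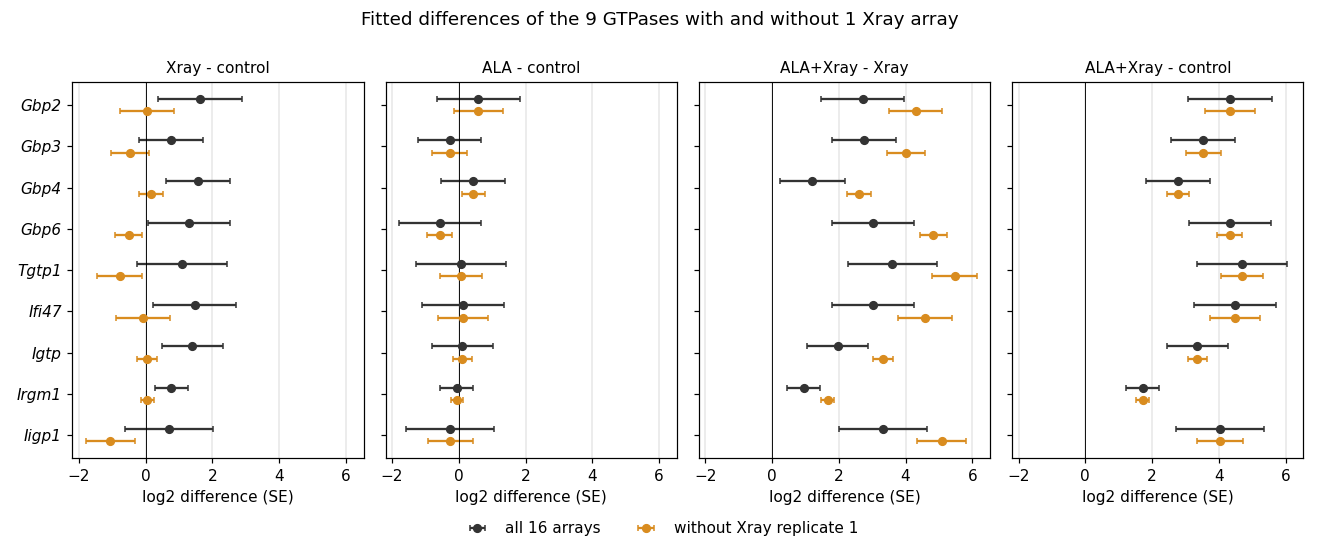
Fitted log2 difference (horizontal axis, bars are SE) of each GTPase in 4 comparisons, with all 16 arrays (dark) and without Xray replicate 1 (orange). For the 7 members other than Gbp4 and Gbp6, whose points rest on readings near background, removing that array moves Xray against control to between -1.05 and 0.06 and ALA+Xray against Xray to 1.66 to 5.47, and leaves ALA+Xray against control in place with shorter bars.

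Each slide carried 1 array of every group, so the differences can also be read within a slide. ALA+Xray exceeded control for 9 of 9 members on each of the 4 slides, with medians of 4.28, 4.29, 3.39 and 2.90 on the log2 scale. It exceeded ALA for 9 of 9 on each slide as well, with medians of 3.60 to 4.71. ALA+Xray against Xray had a median of -2.36 on slide 1, where 0 of 9 were above 0, and medians of 3.86, 4.30 and 5.06 on slides 2, 3 and 4, where 9 of 9 were. For Xray against control the median was 6.66 on slide 1 and 0.63, -0.51 and -1.94 on the others. The position of an array on its slide followed the group on all 4 slides, so position and group cannot be told apart.

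**Figure D3:**
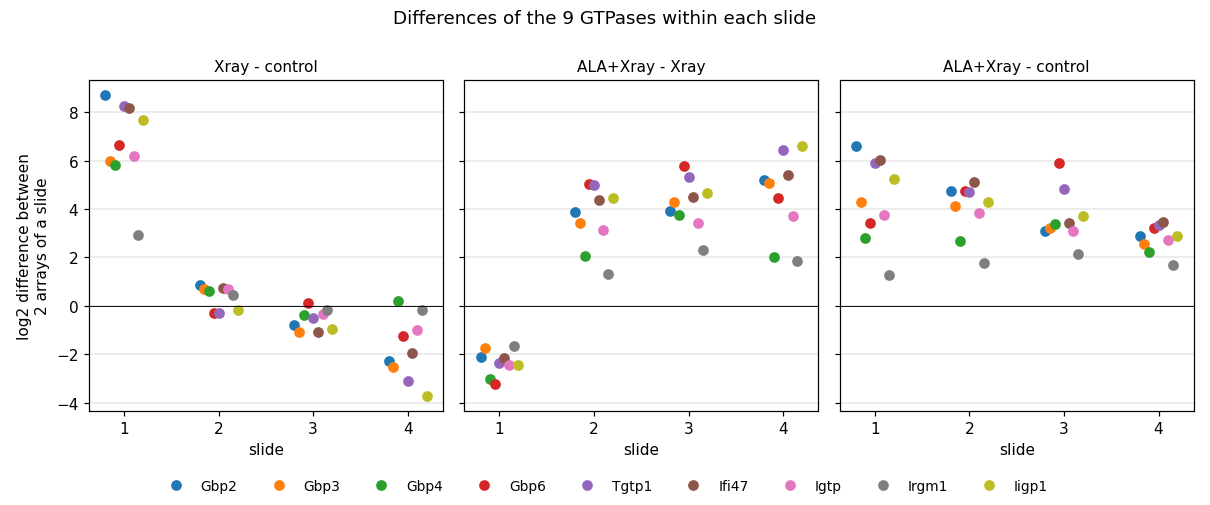
Log2 difference between 2 arrays of the same slide (vertical axis) for each slide (horizontal axis) and GTPase (colour). On slide 1 all 9 points of ALA+Xray against Xray lie below 0, on slides 2 to 4 all lie above, and those of ALA+Xray against control lie above 0 on every slide.

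Xray replicate 1 did not stand apart in array quality: 47.6% of its spots were well above background, within the 44.3% to 53.6% of all 16 arrays, and its 75th percentile of 290 lay within 213 to 521. Pairs of Xray arrays correlated at 0.966 to 0.981 over all genes, near the other groups. No spot was saturated on any array. Labels and file headers record nothing that sets this tumour apart.

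Among members the levels moved together. Over the 16 arrays the 36 pairs of members had Pearson r from 0.848 to 0.990, and over 15 arrays without Xray replicate 1 from 0.817 to 0.987. The arrays are shared by all genes and hold a few high and many low values, so these are descriptions. The 10 genes whose profile was most like the members' mean profile included Psmb8 (r = 0.983) and Psmb9 (0.974), subunits of the immunoproteasome, Il18bp (0.980), the decoy for interleukin 18, and Zbp1 (0.969), a nucleic acid sensor. Erap1 (0.968), which trims peptides for MHC class I, the class I gene H2-T22 (0.956), and Phf11d (0.968) and Phf11a (0.961) were also among them. The other 2 were family members outside the 9, Gbp8 (0.966) and Irgm2 (0.961). After group means were taken out, the same 10 had r from 0.924 to 0.969 over 16 arrays but only 0.458 (Irgm2) to 0.842 (Zbp1) over 15 arrays without Xray replicate 1, so the likeness within groups rests largely on that array.

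Of 20 further genes of the 2 families and their relatives, 12 were on the array and 7 passed the filter. Of the 7, 5 were called higher in ALA+Xray against control, where 9.77% of all genes were. Irgm2, the third regulator, had levels of 0.806 to 1.39 in control, 24.2 on Xray replicate 1, 1.13 to 1.60 on the other Xray arrays and 5.80 to 11.9 in ALA+Xray tumours, a difference of 3.06 ± 0.71 (adjusted p = 0.0105). Gbp7 (at least 4.03-fold, adjusted p = 0.0103) and Gbp8 (at least 2.19-fold, adjusted p = 0.0225) were above background only on Xray replicate 1 and the ALA+Xray arrays, as Gbp4 and Gbp6 were. Both passed the filter only through those arrays, so a difference from control was bound to appear. Gbp9 differed by 1.70 ± 0.50 (adjusted p = 0.0254) and Gvin1, a very large inducible GTPase, by 2.61 ± 0.77 (adjusted p = 0.0257). Gbp5, the inflammasome-linked family member, differed by 1.75 ± 0.66 (adjusted p = 0.0646) and was not called.

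Irgq, a more distant relative of the immunity-related GTPases, had another pattern. Its levels were 0.826 to 1.22 in control, 1.36 to 1.76 in Xray and 1.02 to 1.28 in ALA+Xray tumours. The Xray arrays lay above the control arrays without overlap, yet the difference of 0.52 ± 0.15 missed the threshold (adjusted p = 0.0624). ALA+Xray differed from control by 0.10 ± 0.15 (adjusted p = 0.645). Replicate 1 did not stand out among the 4 Xray arrays for this gene. Gbp2b and Gm12250 were on the array and above background on 0 of 16 arrays.

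Upstream of the family, the transcript of interferon gamma itself (Ifng) was well above background on the same 5 arrays, at 0.512 on Xray replicate 1 and 0.110 to 0.214 in ALA+Xray tumours. Ifng passed the filter only through these arrays, so a difference from control was bound to appear. ALA+Xray was at least 2.01-fold above control, and the fitted difference of 1.93 ± 0.82 was not called (adjusted p = 0.0975). Without Xray replicate 1, an array left out on its outcome, it was called (adjusted p = 0.00993). Ifnb1 and Ifna4, which encode type I interferons, were above background on 0 arrays. The receptor chain Ifngr1 (0.48, adjusted p = 0.0605) and Ifngr2 (-0.30, adjusted p = 0.0781) were not called against control. Among 9 ligand and receptor genes that passed, 1 was called higher and 0 lower, where 9.77% of all genes were called higher and 15.1% lower, so this count is near the background. The 1 was Il12rb1, a receptor chain for interleukin 12 (2.56, adjusted p = 0.00843).

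In the signalling list 5 of 19 were called higher and 1 lower in ALA+Xray against control, beside 9.77% and 15.1% of all genes. Ciita in this list was well above background on only 4 arrays, the least the filter allowed. A difference may therefore be built into the count for this gene. Irf1, a transcription factor induced by interferon gamma, had 6.96 to 8.20 in control, 43.7 on Xray replicate 1 and 11.9 to 18.5 in ALA+Xray tumours, and was not called (1.14, adjusted p = 0.0639). Irf8 (2.08, adjusted p = 0.0370), Irf9 (1.29, adjusted p = 0.0102), Stat2 (1.15, adjusted p = 0.0223) and Usp18, a brake on type I signalling (3.03, adjusted p = 0.0213), were called higher. Ptpn2, a phosphatase that dampens cytokine receptor signals, was the 1 called lower (-0.79, adjusted p = 0.00646).

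Lists of genes known to respond to the same signals held many calls against control and few against Xray. Of 25 genes of the type I interferon list 22 were called higher and 0 lower in ALA+Xray against control, with a median difference of 2.40, beside 9.77% and 15.1% of all genes; Ifit1 (3.88, adjusted p = 0.00646), Isg15 (2.70, adjusted p = 0.0136), Mx2 (2.70, adjusted p = 0.00975) and Ifih1 (2.22, adjusted p = 0.00976) were among them. Of 24 genes of the interferon gamma list 10 were called higher and 0 lower, with a median of 2.00. Without Xray replicate 1 the count called higher was 20, beside 10.7% of all genes. With all 16 arrays Ccl5 (3.17, adjusted p = 0.00518), the Fc receptor Fcgr4 (3.11, adjusted p = 0.00761), H2-K1 (2.63, adjusted p = 0.0140) and Psme2 (1.01, adjusted p = 0.0154) were called. The chemokines Cxcl9 (3.04, adjusted p = 0.0888) and Cxcl10 (0.93, adjusted p = 0.0854) were not. Against Xray, 1 of the 24 and 0 of the 25 were called higher (1.3% of all genes), and 18 and 16 without Xray replicate 1 (4.85% of all genes). Mx1 and Ifi44 of the type I list and Cxcl11 of the gamma list were well above background on only 4 arrays. That is the least the filter allowed, so a difference may be built into these counts for them.

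Among 20 partners in cell defence, such as inflammasome, oxidase and autophagy genes, 5 were called higher and 0 lower in ALA+Xray against control, beside 9.77% and 15.1% of all genes. The same limit holds for Ncf1 in this list, which was well above background on only 4 arrays. Casp4, the caspase that guanylate-binding proteins help to activate (1.47, adjusted p = 0.0108), Pycard, the inflammasome adaptor (1.28, adjusted p = 0.0277), Cyba, an oxidase subunit (1.38, adjusted p = 0.0254), and Atg12 (0.44, adjusted p = 0.0296) were called. Atg5, needed to place these GTPases on vacuoles, was not (0.05, adjusted p = 0.824).

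Marker lists of other cell types differed in how far they varied with the members. In bulk tumour RNA, more cells of a type and more RNA per cell cannot be told apart. Of 17 T and NK cell markers listed, 16 were on the array and 8 passed; their summed level was 0.428 to 0.883 in control, 0.415 to 0.854 in ALA, 4.87 on Xray replicate 1, at most 0.482 on the other Xray arrays and 0.956 to 6.77 in ALA+Xray. Gzmb, the cytotoxic granule protease, was well above background on Xray replicate 1 and the 4 ALA+Xray arrays and on 0 of the other 11. Cd4, Cd247 and Ncr1 were above background on 0 arrays, and Cd3e, a defining T-cell gene, did not follow the members (0.78, adjusted p = 0.330).

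The 15 macrophage and monocyte markers, all above the filter, summed to 64.0 to 122 in control, 13.6 to 45.2 in ALA, 129 on Xray replicate 1, 20.7 to 65.6 on the other Xray arrays and 156 to 342 in ALA+Xray. The pan-leukocyte gene Ptprc had 0.303 to 1.16 in control, 0.131 to 0.460 in ALA, 1.58 on Xray replicate 1, 0.0730 to 0.262 on the other Xray arrays and 0.817 to 4.39 in ALA+Xray. Adgre1, which encodes the macrophage antigen F4/80, was 1.69 higher in ALA+Xray than in control (adjusted p = 0.0966) and 3.14 higher than in Xray (adjusted p = 0.0431). The summed macrophage markers lay lower in ALA than in control tumours without overlap, while the GTPase levels of these groups overlapped. In ALA+Xray against control, 9.77% of all genes were called higher. Of the 8 T and NK cell markers 3 were, and of the 15 macrophage markers 6 were. Against Xray the counts were 0 and 7, where 1.3% of all genes were. Gzma, Gzmb and Klrk1 were above background only on Xray replicate 1 and ALA+Xray arrays, and passed the filter only through these. For them a difference from control was bound to appear. Of 5 dendritic cell and 4 B and plasma cell markers that passed, 0 were called in either comparison, with medians of 0.62 and -0.21 against control.

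Fibroblast and matrix markers, such as collagen genes, were above 0 for 11 of 11 in ALA+Xray against control (median 1.55), Xray (2.20) and ALA (2.33). Of the 11, 1 was called higher against control, near the 9.77% of all genes, and 0 against Xray, where 1.3% were. These markers had 9 called higher against ALA, where 10.7% of all genes were. Their summed level was 28.5 to 109 in control, 17.1 to 102 in ALA, 71.9 on Xray replicate 1, 31.1 to 40.6 on the other Xray arrays and 62.0 to 435 in ALA+Xray. Erythroid markers, the globins among them, had another pattern: they summed to 60.1 to 173 in control, 280.1 to 698 in ALA, 26.1 on Xray replicate 1, 139 to 819 on the other Xray arrays and 23.4 to 54.7 in ALA+Xray. Of the 4 that passed, 0 were called lower in ALA+Xray against control, where 15.1% of all genes were. Against ALA 3 were called lower, where 13.4% of all genes were. The part of any of these cells in the members' levels was not tested. Melanocyte markers summed to 999 to 1180 in control and 929 to 1305 in ALA+Xray, and Tyr (-0.05, adjusted p = 0.885) and the endothelial gene Pecam1 (0.08, adjusted p = 0.862) were not called.

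**Figure D4:**
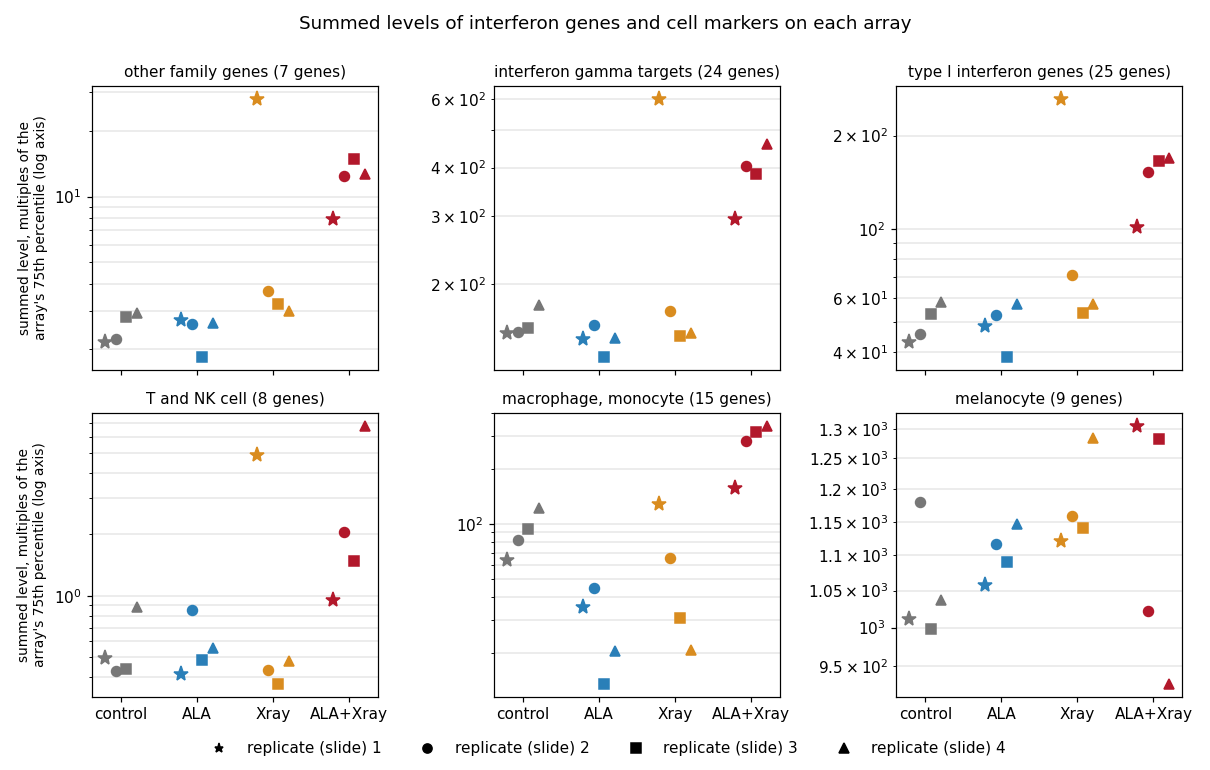
Summed level of the genes of 6 lists on each array, in multiples of the array's 75th percentile on a log axis, by group on the horizontal axis; symbols mark the replicate. The 3 interferon-linked panels put Xray replicate 1 highest, at 27.9, 601 and 262, followed by the 4 ALA+Xray arrays, while the macrophage panel puts the 4 ALA+Xray arrays highest and the melanocyte panel separates no group.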

How the data were processed

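The members and the gene lists were chosen with earlier results of these data known. Per the file headers, the deposited scanner files hold spot brightness as intensity on a linear scale from Agilent Feature Extraction 10.7.3.1 (the submitters' processing notes name 9.5.3.1): the background-subtracted processed signal, the mean signal, the local background and quality flags. The authors' value table also holds intensity and was used as an alternative. Here log2 values of the processed signal were set relative to the 75th percentile of the array's non-control spots, and a probe's unflagged spots were averaged, and 39 probes lacking one on some array dropped out. A probe had to be well above background on 4 or more arrays, a gene was read from its brightest probe on average, and 15399 genes were fitted in R 4.3.3 with limma 3.58.1, and files were read with the R package data.table (1.17.8). The fit had a mean for each group, eBayes moderation and Benjamini-Hochberg adjustment within each of 6 comparisons at a threshold of 0.05. The script was tested on simulated data.

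Each tumour preparation is described as a separate mouse, so p-values measure the spread between tumours; 4 arrays per group limit the precision. Slide number and replicate number were the same on all 16 arrays, and each slide had its own scan number. Slides 1, 2, 3 and 4 had scan numbers 4, 1, 2 and 3. Same-numbered arrays of different groups did not deviate together in every pair: 9 of 24 pairs had a correlation of deviations over 0.1 (range -0.46 to 0.54). For control and ALA+Xray these were 0.54, 0.088, 0.516 and 0.406, so 1 of the 4 missed 0.1. The genes named are the 9 members, the family genes that passed, a fixed set of pathway and marker genes, the 4 of smallest p in ALA+Xray against control of each pathway list where they bear on a result, and the 10 genes most like the members' mean profile. Promoters came from RefSeq (GRCm38.p6), matched by symbol, without the family's windows on chromosome 18. These windows were left out by choice, so the promoter counts do not cover Iigp1, which lies on that chromosome. No window was used for Gbp4 and Gbp6 either. Alternatives were the background correction, scaling, the authors' table, the filter, all probes, the arrays fitted, the replicate block, the moderation, array weights, each array left out, and slide 1 left out.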

Additional observations from a re-analysis of the deposited data

Results flagged for a closer look

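In 36 groups of 4 arrays (9 genes, 4 groups), 4 had 1 array far from the other 3, measured as its gap to the nearest array divided by the group's range and set against the critical value of Dixon for 4 arrays. Chance gives about 1 in 20 such groups, and the members are not independent of each other. In 3 of the 4 the array was Xray replicate 1, the highest for Gbp6 (0.92), Ifi47 (0.88) and Igtp (0.839). The other was ALA replicate 4, the lowest for Ifi47 (0.896), an array on which Ifi47 was not well above background.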

How the results depend on the processing

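Over all alternatives 0 of 9 members were called in Xray against control and in ALA against control. All genes called in either direction ran from 1 (without Xray replicate 1) to 2963 (array weights) in the former. In the latter they ran from 0 to 40 (array weights). Against control, ALA+Xray kept a difference above 0 for every member under every alternative, and so did ALA+Xray against ALA. With a normexp background the median of the 9 members against control was 2.77, and 4.03 with the main processing. The count of members called against control was 3 with a filter on all 16 arrays, which left 3 members in the fit. It ran from 0 to 9 with 1 array left out. Against ALA it was 3 and ran from 2 to 9. With that filter 3686 of all genes fitted were called against control and 3404 against ALA, in either direction. With 1 array left out these numbers ran from 1954 to 5953 and from 2165 to 5817. With the replicate block the count of members called was 7 in both and 0 in the other 4 comparisons. ALA+Xray against Xray gave 6 with array weights, 9 without the 4 arrays of slide 1, and 0 to 9 with 1 array left out. The interaction gave 4, 8 and 0 to 8 in the same order. The number of all genes called in either direction rose in these fits as well. Against Xray it was 318 with all 16 arrays unweighted, 2165 with array weights, 2982 without slide 1 and 1093 without Xray replicate 1. For the interaction it was 189, 2023, 1339 and 762 in the same order. Array weights ran from 0.26 (ALA+Xray replicate 3) and 0.279 (ALA+Xray replicate 1) to 3.097 (ALA replicate 4), with 0.541 for Xray replicate 1.

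Some uncalled differences changed sign. In Xray against control this held without slide 1 for Gbp2 (-0.74), Gbp3 (-0.97), Gbp6 (-0.48), Tgtp1 (-1.30), Ifi47 (-0.77), Igtp (-0.20) and Iigp1 (-1.61), and with array weights for Iigp1 (-0.075). With 1 array left out the ranges were -0.47 to 1.51 (Gbp3), -0.50 to 2.03 (Gbp6), -0.77 to 2.14 (Tgtp1), -0.082 to 2.15 (Ifi47) and -1.05 to 1.75 (Iigp1), the lowest without Xray replicate 1.

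In ALA against control, where differences lay near 0, signs changed for Tgtp1 (-0.028), Ifi47 (-0.048) and Igtp (-0.042) with a normexp background, Tgtp1 with quantile normalisation (-0.002), the authors' table (-0.002) and median scaling (-0.049), and Igtp with median scaling (-0.021). Array weights gave -0.20 (Gbp2), -0.63 (Tgtp1), -0.71 (Ifi47) and -0.034 (Igtp), and leaving out slide 1 gave -0.52 (Tgtp1), -0.76 (Ifi47) and -0.25 (Igtp). With 1 array left out the ranges were -0.19 to 1.06 (Gbp2), -0.77 to 0.078 (Gbp3), -0.46 to 0.53 (Tgtp1), -0.55 to 0.83 (Ifi47), -0.15 to 0.27 (Igtp) and -0.81 to 0.30 (Iigp1).

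For Gbp4, dim on 11 arrays, the normexp background gave -0.15 in ALA+Xray against Xray and -0.23 in the interaction, which ran from -0.059 (without Xray replicate 3) to 2.18 with 1 array left out. Except for the filter on all arrays and the arrays left out, whose construction drops genes or samples, the cause of these changes was not tested. Median scaling moved the median of all genes in ALA against control to -0.12 from 0.00, and in ALA+Xray against control to -0.14 from -0.08. Genes near background (Gbp4, Gbp6, the second Tgtp1 probe) have only lower bounds.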
